A study of Mus musculus with 32 samples.

Results

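The genes described here encode the plasma proteins of coagulation, fibrinolysis and complement and the regulators of these cascades. They are a list of 42 mouse genes given by name, with no measured value in the rule. Of these, 38 had a probe set of their own, out of 22180 genes tested. C3 and Cpb2 are not analysed here, and neither are Klkb1 and Masp2, whose probe sets are shared with another gene. The liver of each of 32 mice was measured on an Affymetrix Mouse Gene 2.1 ST array, and values are log2 expression values, on which a difference of 1 is a 2-fold difference in signal. All mice were wild-type C57BL/6NTac males, 14 weeks old and fasted for 10 h. A gavage of palm oil (2 g/kg), in which saturated fatty acids abound, was compared with a gavage of water, the control. Basal mice, 9 given palm oil and 7 control, were killed under isoflurane 6 h after the gavage. Clamped mice, 9 given palm oil and 7 control, started a hyperinsulinemic-euglycemic clamp at that time, with insulin at 15 pmol/kg/min and glucose infused to hold blood glucose at a target. They had carried a jugular vein catheter for 6 to 7 days, received a glucose tracer for 110 min before the insulin, and were killed with ketamine and xylazine. The catheter, the tracer, the later hour and the anaesthetic therefore cannot be told apart from the insulin in any comparison of clamped with basal mice.

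Hepatocytes make most clotting factors and complement proteins and secrete them into the blood. In clotting, tissue factor (F3) with factor VII, or the contact factors, lead to thrombin (F2), which turns fibrinogen, built of the chains Fga, Fgb and Fgg, into fibrin; plasmin, made from plasminogen (Plg), dissolves the clot. Complement is activated by the classical, lectin and alternative pathways and ends in the membrane attack complex of C5 to C9. Fibrinogen and several complement proteins are known as acute-phase proteins, which the liver makes in larger amounts after injury or inflammation, under interleukin-6 and related signals.

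Upstream sequences were chosen for the fibrinogen chains and for the genes with the largest rise and fall in clamped control mice, not by motif. Serpina10, the largest rise, had no RefSeq promoter at hand, so those of Fga, Fgb, Fgg and F3, which fell, are shown. Each is the stretch of 250 bases before the gene's RefSeq start (build GRCm38.p6), 5′ to 3′ on the gene's strand, and capitals mark matches on either strand to the 5 motifs searched. The stretch of Fga lies at chr3:83025903-83026152 (plus strand), Fgb at chr3:83049864-83050113 (minus strand), Fgg at chr3:83007474-83007723 (plus strand) and F3 at chr3:121723287-121723536 (plus strand), and the fibrinogen genes are neighbours.
Fga: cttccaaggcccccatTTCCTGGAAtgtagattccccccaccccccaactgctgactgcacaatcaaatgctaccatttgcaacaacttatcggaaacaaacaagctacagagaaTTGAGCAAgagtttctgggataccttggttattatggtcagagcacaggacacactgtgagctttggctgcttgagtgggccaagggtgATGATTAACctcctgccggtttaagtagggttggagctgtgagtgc
Fgb: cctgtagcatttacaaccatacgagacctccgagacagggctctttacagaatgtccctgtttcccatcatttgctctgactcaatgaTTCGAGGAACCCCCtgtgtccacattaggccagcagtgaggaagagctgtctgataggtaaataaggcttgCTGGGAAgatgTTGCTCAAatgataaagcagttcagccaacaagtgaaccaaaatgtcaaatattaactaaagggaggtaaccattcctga
Fgg: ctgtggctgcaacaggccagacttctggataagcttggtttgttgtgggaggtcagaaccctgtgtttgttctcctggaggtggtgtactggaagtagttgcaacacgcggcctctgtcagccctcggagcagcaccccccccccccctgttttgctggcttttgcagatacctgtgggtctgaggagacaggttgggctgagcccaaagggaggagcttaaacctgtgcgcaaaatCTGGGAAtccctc
F3: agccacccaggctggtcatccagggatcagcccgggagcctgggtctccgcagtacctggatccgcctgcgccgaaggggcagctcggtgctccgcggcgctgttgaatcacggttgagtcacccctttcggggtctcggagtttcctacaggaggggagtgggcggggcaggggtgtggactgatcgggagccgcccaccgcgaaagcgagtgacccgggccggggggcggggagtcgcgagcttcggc
The motifs were CTGGGAA, known from interleukin-6 response elements, TTCNNNGAA, the STAT palindrome, TTGCNNAA, a form of the C/EBP site, GTTAATNAT, the HNF1 site, and GGGNNTTCC, a form of the NF-kB site. Fga held TTCNNNGAA starting 234 bases before the start, TTGCNNAA at 135 and GTTAATNAT at 46. Fgb held TTCNNNGAA at 162, overlapping GGGNNTTCC at 157, and then CTGGGAA at 91 and TTGCNNAA at 80. Fgg held CTGGGAA alone, at 13, and F3 held no match, which says only that these letters are not in this window. RefSeq promoters were at hand for 28 of the 38 genes, and 1 was taken for each. The shares set beside them are over all 32851 promoters of 27025 genes, with no limit to genes expressed in liver. CTGGGAA was in 3 of these 28 (F9, Fgb and Fgg; 10.7%) against 9.10% of all 32851 promoters, and GGGNNTTCC in Fgb alone (3.57% against 4.98%). TTCNNNGAA was in 5 (C8a, F9, Fga, Fgb and Pros1; 17.9% against 7.02%) and TTGCNNAA in 6 (Ahsg, C9, F11, F9, Fga and Fgb; 21.4% against 9.56%). GTTAATNAT was in 4 (C4bp, F13b, Fga and Hc; 14.3% against 0.737%). In F9 the CTGGGAA and TTCNNNGAA matches overlap. A match is a description of the letters and not a measured binding site.

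Several features of the arrays bear on the values below. Animal numbers of the basal mice (33 to 52) and the clamped mice (15 to 32) do not overlap, so that the order of the animals cannot be told apart from the clamp. The 7 basal arrays numbered 44 or higher, 4 control and 3 palm oil, had a narrower spread of values, with interquartile ranges of 2.44 to 2.54, while the other 9 basal arrays had 2.72 to 2.96 and clamped arrays 2.64 to 2.85. Hepatocyte markers were high on every array, and their sum over 8 genes (which include Fga) was 82.6 to 85.7 in basal and 85.7 to 86.9 in clamped mice; 2 of the 8, Fga and Hpx, rose in both clamp comparisons. Neutrophil marker sums over 13 genes were 24.2 to 33.8 in basal and 39.1 to 48.8 in clamped mice, with 7 of 13 higher in each comparison, S100a8, S100a9 and Lcn2 among them, while Ngp, Ltf, Camp, Elane and Mpo had mean values of 1.11 to 1.41. Kupffer cell and macrophage sums over 10 genes were 52.5 to 57.9 in basal and 55.2 to 61.6 in clamped mice. Pancreatic acinar transcripts averaged above 6 on 9 of the basal and 3 of the clamped arrays. In bulk tissue, a change in the number of cells of a type and a change in RNA per cell cannot be told apart, and the part of these differences in the results below was not tested beyond the values given.

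Clamped mice had more transcript of fibrinogen, of the protein Z-dependent protease inhibitor, of protein S and of a subset of complement genes, and less of tissue factor, than basal mice, after either gavage. In control mice 14 of the 38 genes rose (36.8%) and 1 fell (2.63%) at an adjusted p below 0.05, against 4.66% and 4.09% of all genes. In palm oil mice 12 rose (31.6%) and 1 fell, against 3.76% and 3.80% of all genes. These comparisons share no arrays, but the spread of each gene was estimated over all 32 arrays. The same 13 genes were called in both, 12 of them higher (F9, Fga, Fgb, Fgg, Pros1, Serping1, Serpina10, C6, C9, C4b, Hc and C4bp) and F3 lower. Kng1 and Cfp passed in control mice alone. The other 23 genes passed in neither. With only the compared groups fitted, 10 of the 38 genes were called in control mice and 13 in palm oil mice. Kng1, Cfp, C6, C9 and Hc then lost their control calls. The median difference over the 38 genes was 0.19 in control and 0.18 in palm oil mice, against -0.02 over all genes in each, and 30 and 31 of the 38 differences were above 0; with quantile normalization repeated on the deposited values the medians were 0.08 and 0.11. Among genes at least as bright as the dimmest of the 38, 9.23% rose and 7.65% fell in control mice, and 7.45% and 7.11% in palm oil mice. The dimmest was F3 (mean 1.93), near the median of all genes (1.83), and the next dimmest was Cfp (5.19). These 10757 genes are therefore not matched in brightness to most of the 38.

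**Figure D1:**
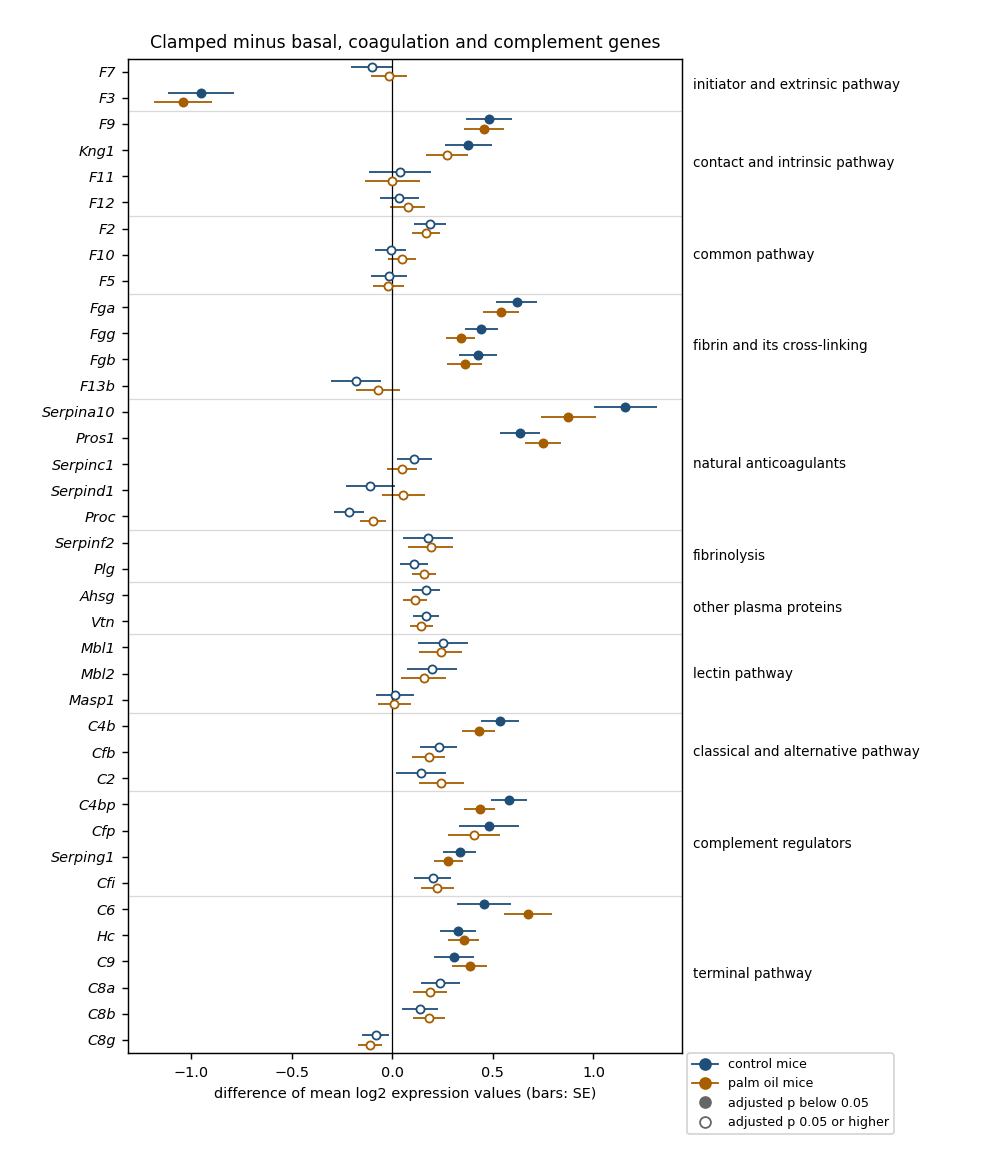
Difference between clamped and basal mice in log2 expression value (horizontal axis) for each of the 38 genes, grouped by role, in control mice (blue, 7 against 7) and palm oil mice (orange, 9 against 9); bars are standard errors and filled points have an adjusted p below 0.05. Most points lie to the right of 0, with Serpina10 farthest right at 1.16 and 0.87 and F3 alone far to the left at -0.95 and -1.04.

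Tissue factor, the membrane receptor that starts clotting when blood meets it, was the single gene to fall. F3 values in control mice were 2.10 to 2.49 (median 2.31) on basal arrays and 0.65 to 2.13 (median 1.13) on clamped arrays. Palm oil basal arrays gave 2.08 to 2.95 (median 2.50) and clamped arrays 1.20 to 2.01 (median 1.44). A single control clamped array reached the basal range, and the palm oil groups did not overlap. F3 fell by 0.95 ± 0.17 (SE) in control mice (adjusted p = 0.000152) and fell by 1.04 ± 0.15 in palm oil mice (adjusted p = 5.64e-06), which is 1.93-fold and 2.06-fold. Its mean of 1.93 over all arrays was near the median of all genes (1.83), where RMA values are compressed towards the background. F7, the plasma protease that F3 binds, differed by -0.10 ± 0.10 and -0.02 ± 0.09 and passed in neither.

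Of the contact and intrinsic factors, factor IX rose and the contact factors XI and XII did not pass. F9, the protease lacking in haemophilia B, ran from 8.10 to 8.81 (median 8.29) in control basal and from 8.69 to 8.98 (median 8.95) in control clamped mice. In palm oil mice it ran from 8.07 to 8.82 (median 8.52) and from 8.75 to 9.06 (median 9.04). The clamped values were thus mostly higher, with some overlap in both pairs of groups. F9 rose by 0.48 ± 0.11 (adjusted p = 0.00433) and 0.46 ± 0.10 (adjusted p = 0.00228). Kng1, which encodes the high-molecular-weight kininogen that carries prekallikrein and factor XI, rose in control mice by 0.38 ± 0.12 (adjusted p = 0.0386) and differed by 0.27 ± 0.10 in palm oil mice (adjusted p = 0.122). Its ranges were 7.53 to 8.12 basal and 7.95 to 8.54 clamped in control mice, and 7.26 to 8.15 and 8.01 to 8.34 in palm oil mice, overlapping in both. Kng1 and its near-identical copy Kng2 can share probes, so the source of this signal is uncertain. F11 and F12 differed by at most 0.08.

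The common pathway showed no call in the main fit, and other settings are given below. F2, the precursor of thrombin, ran from 10.21 to 10.55 (median 10.46) in control basal and from 10.54 to 10.73 (median 10.58) in control clamped mice. The palm oil groups ran from 10.22 to 10.61 (median 10.45) and from 10.52 to 10.74 (median 10.55). The control ranges of F2 met only at their edges, while in palm oil mice 4 of 9 clamped arrays were above every basal array and the rest lay within the basal range. The differences of 0.19 ± 0.08 and 0.17 ± 0.07 missed the threshold (adjusted p = 0.154 and 0.161). F5 and F10, the cofactor and the protease that activate prothrombin together, differed by between -0.02 and 0.05.

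All 3 chains of fibrinogen rose in both comparisons. Fga, the alpha chain, ran from 9.93 to 10.48 (median 10.31) in control basal and from 10.70 to 11.07 (median 10.86) in control clamped mice. It ran from 9.97 to 10.55 (median 10.36) in palm oil basal and from 10.77 to 11.08 (median 10.79) in palm oil clamped mice. Every clamped array was above every basal array of its gavage. Fga rose by 0.62 ± 0.10 (1.54-fold, adjusted p = 7.43e-05) and 0.54 ± 0.09 (1.45-fold, adjusted p = 8.29e-05). Fgb, the beta chain, was 10.49 to 11.03 (median 10.76) in control basal and 11.06 to 11.31 (median 11.22) in control clamped mice, against 10.45 to 11.11 (median 10.92) and 11.07 to 11.34 (median 11.17) after palm oil. The ranges of Fgb were apart in control mice and overlapped in palm oil mice. Fgb rose by 0.43 ± 0.10 (adjusted p = 0.00301) and 0.36 ± 0.08 (adjusted p = 0.00482). Fgg, the gamma chain, was 10.57 to 10.95 (median 10.68) and 11.09 to 11.24 (median 11.21) in control mice, and 10.55 to 11.02 (median 10.75) and 10.99 to 11.23 (median 11.14) in palm oil mice, basal first. Fgg too was apart in control mice, and in palm oil mice its lowest clamped array lay within the basal range. Fgg rose by 0.44 ± 0.08 (adjusted p = 0.000363) and 0.34 ± 0.07 (adjusted p = 0.00189). F13b, the carrier subunit of the factor that cross-links fibrin, differed by -0.18 ± 0.13 and -0.07 ± 0.11 and was not called.

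**Figure D2:**
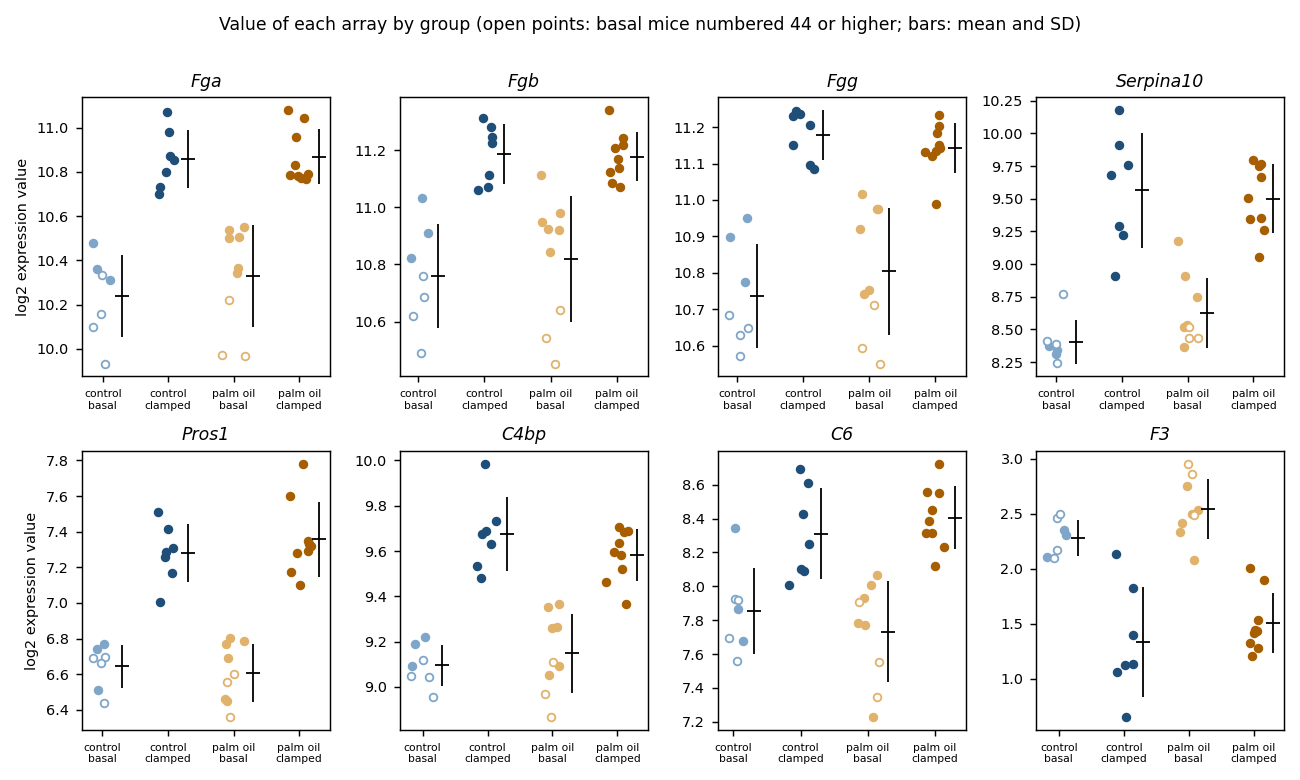
Log2 expression value of every array (vertical axis) for 8 genes in the 4 groups, with the mean and SD beside the points; open points are the basal mice numbered 44 or higher. Fga and Pros1 show no overlap between basal and clamped arrays after either gavage, and the open points of Fga and Fgb lie mostly low within the basal groups.

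Among the natural anticoagulants 2 genes rose and 3 did not pass. Serpina10 encodes the protein Z-dependent protease inhibitor, a serpin that blocks factor Xa. Its values were 8.24 to 8.77 (median 8.38) in control basal and 8.91 to 10.18 (median 9.69) in control clamped mice, and 8.36 to 9.18 (median 8.52) and 9.05 to 9.80 (median 9.51) in palm oil mice. The control groups were apart, while the highest palm oil basal array exceeded the lowest clamped array. Serpina10 rose by 1.16 ± 0.16 (2.23-fold, adjusted p = 3.59e-06) and 0.87 ± 0.14 (1.83-fold, adjusted p = 3.13e-05). Pros1 encodes protein S, the cofactor of activated protein C. It ran from 6.44 to 6.77 (median 6.69) and from 7.01 to 7.51 (median 7.29) in control mice, and from 6.36 to 6.80 (median 6.60) and from 7.10 to 7.78 (median 7.32) in palm oil mice. No clamped array of either gavage came down to the basal range. Pros1 rose by 0.63 ± 0.10 (1.55-fold, adjusted p = 4.23e-05) and 0.75 ± 0.09 (1.68-fold, adjusted p = 3.06e-07). Proc, which encodes protein C itself, differed the other way, by -0.22 ± 0.08 in control mice (adjusted p = 0.0676) and -0.10 ± 0.07 in palm oil mice (adjusted p = 0.495), and was not called. Serpinc1, which encodes antithrombin, was 9.96 to 10.41 (median 10.11) and 10.06 to 10.36 (median 10.32) in control mice, and 9.96 to 10.44 (median 10.28) and 10.21 to 10.43 (median 10.30) in palm oil mice. Those ranges coincide for the most part, and the differences of 0.11 ± 0.09 (adjusted p = 0.534) and 0.05 ± 0.08 (adjusted p = 0.819) were not called and became -0.04 in both with repeated quantile normalization. Serpind1, heparin cofactor II, differed by -0.11 ± 0.12 and 0.05 ± 0.11.

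Fibrinolysis showed no call in the main fit, and other settings are given below. Plg ran from 10.50 to 10.65 (median 10.55) in control basal and from 10.62 to 10.77 (median 10.66) in control clamped mice, and from 10.38 to 10.70 (median 10.57) and 10.60 to 10.74 (median 10.65) in palm oil mice. Its ranges overlapped, with differences of 0.11 ± 0.07 (adjusted p = 0.406) and 0.16 ± 0.06 (adjusted p = 0.126), the first turning to -0.05 with repeated quantile normalization. Serpinf2, which encodes the plasmin inhibitor alpha-2-antiplasmin, differed by 0.18 ± 0.12 and 0.19 ± 0.11. Of the other plasma proteins, Vtn (vitronectin) differed by 0.17 ± 0.07 and 0.14 ± 0.06 and Ahsg (fetuin-A) by 0.17 ± 0.07 and 0.11 ± 0.06, with no call.

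In complement, the lectin pathway did not pass, while C4b rose. Mbl1 and Mbl2, the mannose-binding lectins, differed by 0.16 to 0.25 in the 2 comparisons, and Masp1, their protease, by 0.01 in each. C4b encodes complement C4, which is cleaved in the classical and lectin pathways. It was 8.62 to 8.99 (median 8.81) and 9.13 to 9.53 (median 9.39) in control mice, and 8.71 to 9.12 (median 8.87) and 9.02 to 9.67 (median 9.32) in palm oil mice. Its control groups were apart and its palm oil groups overlapped. C4b rose by 0.53 ± 0.10 (adjusted p = 0.000202) and 0.43 ± 0.08 (adjusted p = 0.000662). Because C4a is a near-identical copy, the share of each copy in this signal is uncertain. C2 and Cfb, the protease subunits of the classical and alternative convertases, differed by 0.14 to 0.24 with no call.

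Of 4 complement regulators, 3 rose in control and 2 in palm oil mice. C4bp, which encodes the C4b-binding protein that carries protein S in human plasma, was 8.96 to 9.22 (median 9.09) and 9.48 to 9.98 (median 9.68) in control mice. After palm oil it was 8.87 to 9.37 (median 9.11) and 9.37 to 9.71 (median 9.59). Clamped arrays were higher, touching the basal range in palm oil mice. C4bp rose by 0.58 ± 0.09 (adjusted p = 2.57e-05) and 0.43 ± 0.08 (adjusted p = 0.00023). Serping1, which encodes the C1 inhibitor, also of the contact proteases, rose by 0.34 ± 0.08 (adjusted p = 0.00597) and 0.28 ± 0.07 (adjusted p = 0.0111). Its basal arrays of 9.71 to 10.08 and 9.68 to 10.09 were all below the clamped arrays of 10.16 to 10.35 and 10.14 to 10.28. Cfp encodes properdin, the stabiliser of the alternative convertase, which myeloid cells make. It ran from 4.39 to 5.18 (median 4.98) and 5.06 to 5.67 (median 5.29) in control mice, and from 4.36 to 5.45 (median 5.07) and 4.97 to 5.91 (median 5.43) in palm oil mice, with overlap in both. Cfp rose by 0.48 ± 0.15 in control mice (adjusted p = 0.0343), and its difference of 0.40 ± 0.13 in palm oil mice lay at the threshold (adjusted p = 0.0504). The neutrophil marker sums given above also differed between basal and clamped arrays, and their part in the Cfp difference was not tested. Cfi, the protease that inactivates C3b and C4b, differed by 0.20 ± 0.09 and 0.22 ± 0.08 with no call.

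In the terminal pathway C6, Hc and C9 rose and the 3 genes of C8 did not pass. C6 was 7.56 to 8.35 (median 7.87) and 8.01 to 8.70 (median 8.25) in control mice, and 7.23 to 8.06 (median 7.78) and 8.12 to 8.72 (median 8.39) in palm oil mice. Overlap was seen in control mice alone. C6 rose by 0.46 ± 0.14 (adjusted p = 0.028) and 0.67 ± 0.12 (1.59-fold, adjusted p = 0.000192). Hc, which encodes C5, was 9.34 to 9.63 (median 9.39) and 9.55 to 9.98 (median 9.81) in control mice, and 9.17 to 9.72 (median 9.55) and 9.74 to 9.99 (median 9.82) in palm oil mice. The palm oil groups were apart, and Hc rose by 0.33 ± 0.09 (adjusted p = 0.0154) and 0.36 ± 0.08 (adjusted p = 0.00252). C9, the pore-forming subunit, was 9.19 to 9.58 (median 9.33) and 9.28 to 9.99 (median 9.62) in control mice, and 8.98 to 9.44 (median 9.39) and 9.52 to 9.93 (median 9.63) in palm oil mice. It rose by 0.31 ± 0.10 (adjusted p = 0.0453) and 0.38 ± 0.09 (adjusted p = 0.00338), with no overlap in palm oil mice. C8a and C8b differed by 0.14 to 0.24, and C8g by -0.08 ± 0.07 and -0.11 ± 0.06. Over all 38 genes, the groups did not overlap for 9 in control mice, all higher in clamped mice, against 1.39% of all genes apart and higher and 1.16% apart and lower. In palm oil mice they did not overlap for 7, 6 of them higher and F3 lower, against 0.866% and 0.586% of all genes.

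Without the basal arrays numbered 44 or higher, the differences of the 15 called genes were smaller in both comparisons. Serpina10 and Cfp in control mice were the exceptions, with larger differences. In control mice, with only 3 basal arrays left, 8 of the 38 genes were called in place of 15 (7 higher and F3 lower), and in palm oil mice 10 in place of 13. Of all genes, 396 rose and 630 fell in control mice, against 1033 and 907 with every array. In palm oil mice 529 of all genes rose and 761 fell, against 835 and 843. Fga then rose by 0.47 ± 0.10 and 0.40 ± 0.08 (adjusted p = 0.00536 and 0.00138), against 0.73 and 0.81 when the higher-numbered basal arrays alone were used. Fgb differed by 0.26 and 0.22 (adjusted p = 0.104 and 0.0579), so that its call was lost in both, while Fgg was called at 0.30 and 0.25 (adjusted p = 0.0437 and 0.0255). F9 was 0.25 in control mice (adjusted p = 0.212) and 0.30 in palm oil mice (adjusted p = 0.024). Serping1 and C9 lost their calls in both comparisons, and C6, Hc and Kng1 in control mice. Serpina10 was 1.22 and 0.79, Pros1 0.61 and 0.70, C4bp 0.51 and 0.35, C4b 0.46 and 0.36, and F3 -0.92 and -0.93, all called. Mean hepatocyte markers without Fga were 10.38 to 10.58 on the basal arrays numbered 44 or higher, 10.54 to 10.75 on the other basal arrays and 10.70 to 10.84 on the clamped arrays. Of these 7 markers, Hpx was itself called in both comparisons (0.55 and 0.48). The others, Serpina1c (0.41 and 0.33) among them, were not called. A term for this level can thus take up part of the clamp difference itself. With that level as a term of the model, chosen after its values were seen, 8 genes were called in control mice (6 higher, and F3 and F13b lower) and 6 in palm oil mice (5 higher, and F3 lower). Of all genes, 548 rose and 979 fell with this term in control mice, and 473 and 1004 in palm oil mice. Fga was then called at 0.40 ± 0.10 and 0.33 ± 0.09 (adjusted p = 0.0099 and 0.0208). Fgb lost its call in both, at 0.21 and 0.15 (adjusted p = 0.19 and 0.337), as did F9 at 0.18 and 0.17 (adjusted p = 0.303 and 0.291). Fgg was called at 0.27 in control mice (adjusted p = 0.0336) and not at 0.18 in palm oil mice (adjusted p = 0.164). Without the arrays high in acinar transcripts, 5 of the 38 were called in palm oil mice (F3, Fga, Pros1, Serpina10 and C6). That setting left out 5 of the 9 palm oil basal arrays and 2 of the 9 palm oil clamped arrays. Of all genes, 290 then rose and 446 fell in palm oil mice, against 835 and 843 with every array. Calls near the threshold also depended on single arrays: in control mice leaving out a single array ended the call of C6 for 6 of the arrays (adjusted p up to 0.075), of C9 for 16 (up to 0.118), of Cfp for 6 (up to 0.0979) and of Kng1 for 8 (up to 0.101). In palm oil mice Cfp passed when any of 8 arrays was left out (adjusted p down to 0.0221). Under each of the 18 other settings of the analysis, and with any array left out, 7 of the 15 genes of the control comparison (C4b, C4bp, F3, Fga, Fgg, Pros1 and Serpina10) and 5 of the 13 of the palm oil comparison (C6, F3, Fga, Pros1 and Serpina10) stayed called. Repeated quantile normalization gave 8 higher and 2 lower of the 38 in control mice (F3 and Proc lower), with 880 higher and 1223 lower of all genes against 1033 and 907. Calls were also gained. The exact rank sum test called F2, Vtn, Cfb and Cfi in control mice, where it did not call Kng1, Cfp, C6 and C9. In palm oil mice it added C8g. Against the basal arrays numbered 44 or higher alone, F2, Plg, Kng1 and Cfi were gained in palm oil mice.

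**Figure D3:**
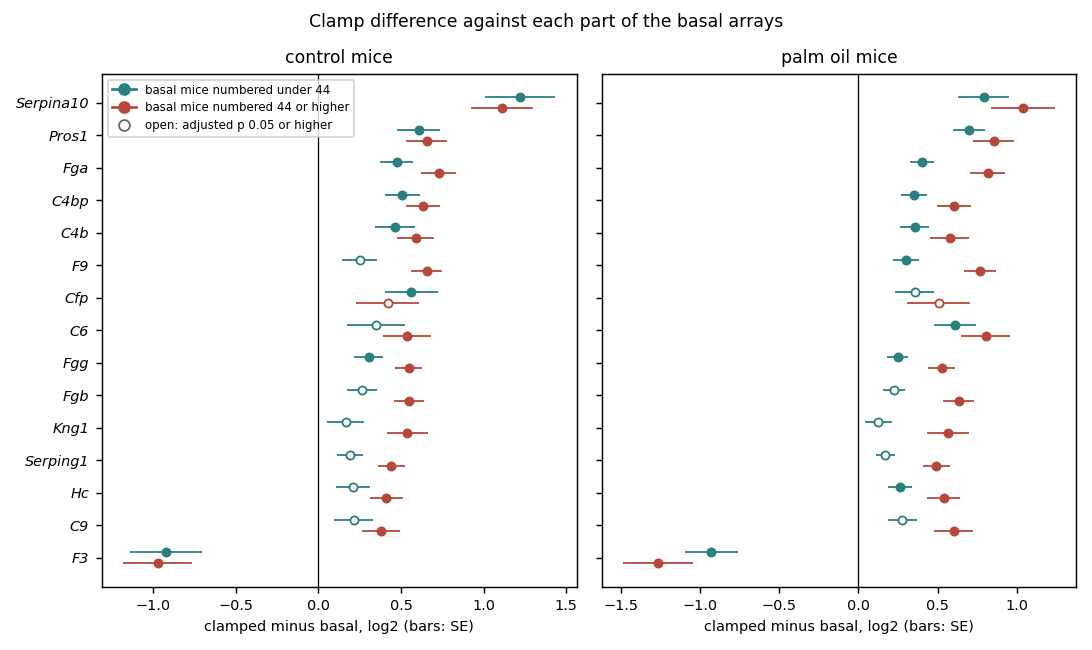
Clamped minus basal difference in log2 expression value (horizontal axis, with SE) of the 15 genes called in either comparison, computed against the basal mice numbered under 44 (teal) or 44 and higher (red), for control mice (left) and palm oil mice (right); open points have an adjusted p of 0.05 or higher. All 14 genes with a rise lie right of 0 against both parts. The red points lie farther right than the teal ones for all 14 in palm oil mice. In control mice this holds for all but Serpina10 and Cfp.

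None of the 38 genes passed in the comparisons of palm oil with control. At an adjusted p below 0.05 limma called 0 of 38 and 0% of all genes in basal mice, in clamped mice and in the interaction of palm oil and clamp. An unadjusted limma p below 0.05 was reached by 0 of the 38 in any of these. Of all 22180 genes, 1134, 781 and 773 reached it, in the same order. At such shares few of 38 genes would reach it, so this 0 adds little. The exact rank sum test, run for the palm oil comparisons, also called 0. These comparisons share arrays with the clamp comparisons and with each other. The median difference was 0.02 in basal and -0.00 in clamped mice. In basal mice the smallest p belonged to F3 at 0.26 ± 0.16 (95% interval -0.05 to 0.58), followed by Serpina10 at 0.22 (-0.08 to 0.52) and F9 at 0.15 (-0.07 to 0.36). In clamped mice they were Serpind1 at 0.21 ± 0.11 (-0.02 to 0.44), F9 at 0.12 (-0.09 to 0.34) and C4bp at -0.09 (-0.26 to 0.08). Palm oil minus control for Fga was 0.09 (-0.11 to 0.29) in basal and 0.01 (-0.19 to 0.21) in clamped mice, for Fgb 0.06 (-0.13 to 0.24) and -0.01 (-0.19 to 0.18), and for Fgg 0.07 (-0.09 to 0.23) and -0.04 (-0.19 to 0.12). A missed threshold does not show equal levels, but for fibrinogen these intervals leave out a difference as large as the Fga rise under the clamp. The interaction was -0.28 ± 0.21 for Serpina10 (-0.70 to 0.14), -0.15 ± 0.12 for C4bp (-0.39 to 0.09) and 0.12 ± 0.10 for Proc (-0.08 to 0.33). For Kng1 and Cfp, called in control mice alone, the difference between the gavages was therefore not shown, since the lowest adjusted p of the interaction over the 38 genes was 0.9998.

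**Figure D4:**
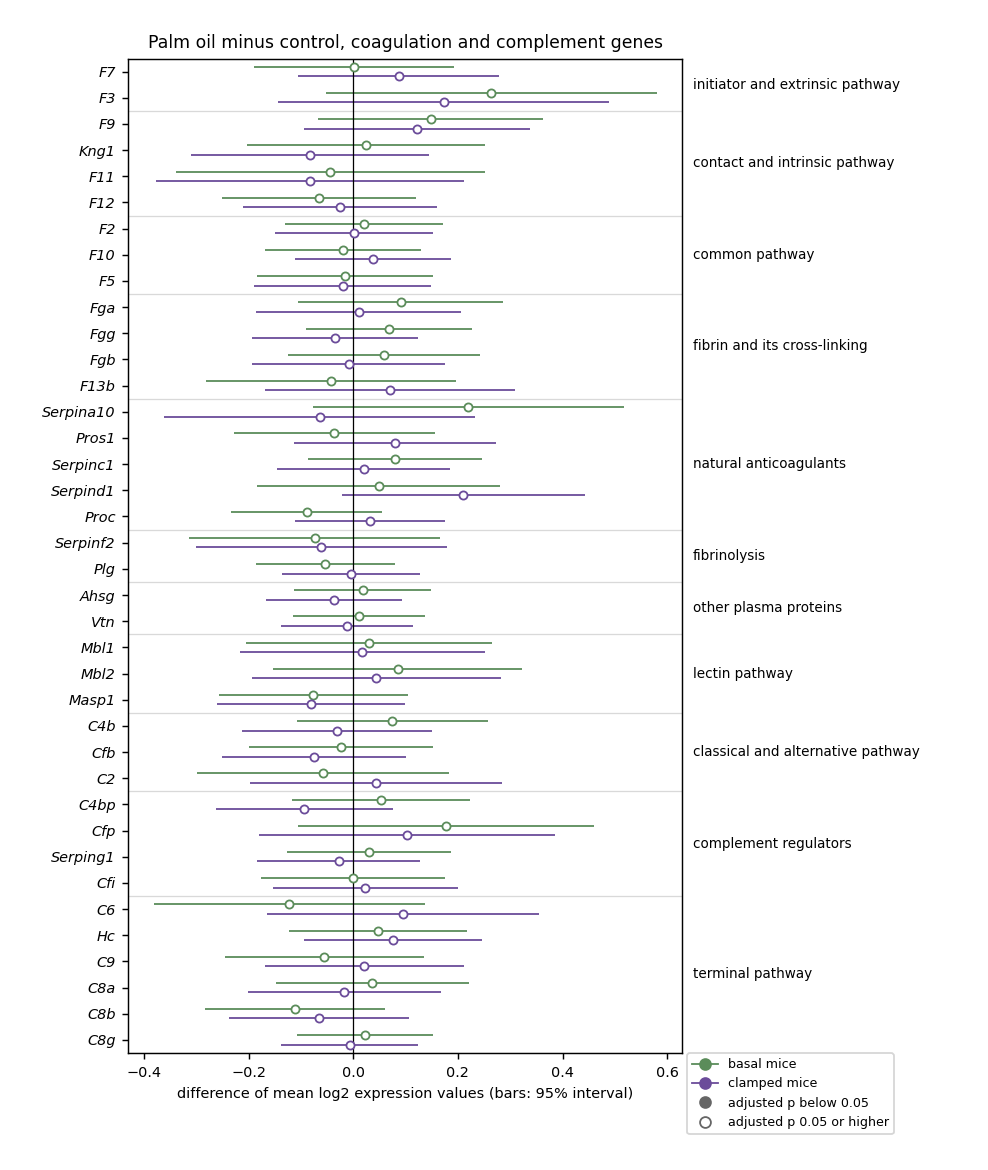
Palm oil minus control difference in log2 expression value (horizontal axis) for each of the 38 genes, by role, in basal mice (green, 9 against 7) and clamped mice (purple, 9 against 7), with 95% intervals. Every interval includes 0, and the point farthest from 0 is F3 in basal mice at 0.26.

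The chains of fibrinogen also varied together between mice of a group, and for the genes of C8 no such relation passed the test. Over 32 arrays, with each value taken relative to its group's mean, Pearson's r of Fga with Fgb was 0.93 and Spearman's rho 0.93. Fgb and Fgg had an r of 0.83 (rho 0.85) and Fga and Fgg an r of 0.76 (rho 0.78). Each of these passed a two-sided permutation test within groups (adjusted over 6 pairs, the highest p was 8e-05; 1e-05 is the smallest unadjusted p the 100000 resamples can give). Without the 2 arrays farthest from the median of the first gene the r were 0.91, 0.83 and 0.81 in the same order. Centred also on each part of the basal arrays, they were 0.85, 0.56 and 0.47 (adjusted permutation p = 6e-05, 0.00453 and 0.0116). The permutation takes the arrays of a group, or of a part, as exchangeable. Differences between whole arrays that move many genes together were therefore not set apart from a link between the chains. For C8a and C8b r was 0.15 (rho 0.17, adjusted permutation p = 0.519), for C8a and C8g -0.11 (rho -0.17, p = 0.574) and for C8b and C8g -0.31 (rho -0.26, p = 0.217). Of all genes, the values most like the mean of the 3 fibrinogen chains by the same group-centred r over 32 arrays were Fgl1 (0.88), Hamp (0.83), Ube2k (0.83), Srsf11 (0.82) and Insr (0.82), a description that shares the normalization and the split of the basal arrays. Serping1 (0.81) and Kng1 (0.77) came closest among the other genes of the cascades, and F3 was farthest at -0.40.

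**Figure D5:**
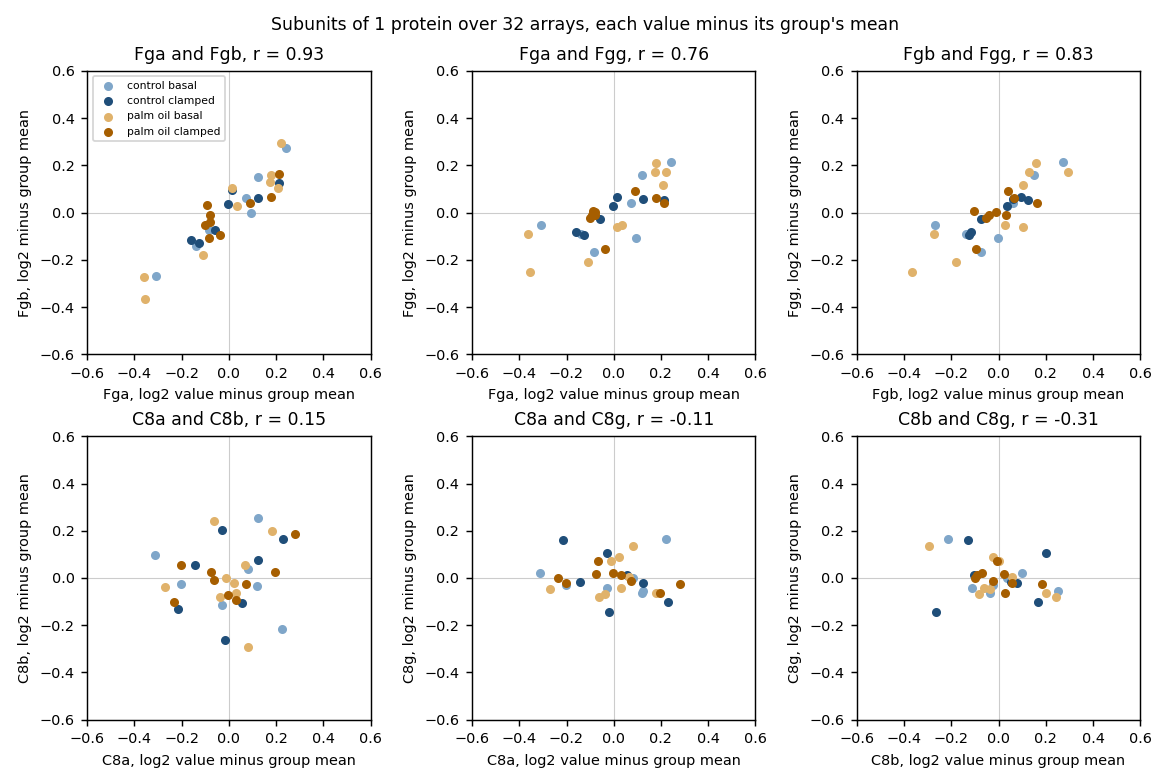
Log2 expression value minus the group's mean of one subunit (horizontal axis) against another of the same protein (vertical axis), 32 arrays coloured by group. The points of the 3 fibrinogen pairs (top) lie along a rising line with r of 0.76 to 0.93, and those of the 3 C8 pairs (bottom) scatter with r of -0.31 to 0.15.

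Other genes of the same cascades, receptors and regulators of which 48 of 55 listed were measured, are given by count. In control mice 7 rose (14.6%) and 1 fell, and in palm oil mice 7 rose and 0 fell, beside the shares of all genes given above. C4a, the copy of C4b, rose by 1.74 ± 0.34 and 1.42 ± 0.30 (adjusted p = 0.000692 and 0.00166). Thbd, which encodes thrombomodulin, the endothelial receptor that turns thrombin towards activating protein C, rose by 1.56 ± 0.18 and 1.48 ± 0.16 (2.96-fold and 2.80-fold; adjusted p = 2.67e-07 and 4.19e-08). C5ar1, the receptor of the C5a fragment, rose by 1.07 ± 0.31 in control mice (adjusted p = 0.0209) and differed by 0.77 ± 0.27 in palm oil mice (adjusted p = 0.0769). Thbs1, thrombospondin, rose by 0.87 ± 0.23 and 0.62 ± 0.20 (adjusted p = 0.0107 and 0.0488). Proz, which encodes the protein Z that Serpina10's product works with, fell by 0.31 ± 0.10 in control mice (adjusted p = 0.0335) and differed by -0.11 ± 0.08 in palm oil mice (adjusted p = 0.532). C1qb, C1s1 and Kng2 also rose in control mice, and C1qb, C1qc, Kng2 and Plaur in palm oil mice. C5ar1 is also a receptor of myeloid cells, whose marker sums differed as given above, and their part in its rise was not tested.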

How the data were processed

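The deposited log2 expression values were used unchanged. Per the submitters' processing notes, the authors ran RMA with Affymetrix Expression Console (version 1.3.0.187). RMA corrects background, normalizes between arrays and summarises probes. Symbols came from the platform annotation, and where a gene had several probe sets, that with the highest mean stood for it, which left 22180 genes with no filter on low values. Groups came from the sample titles. limma 3.58.1 (R 4.3.3) fitted 1 mean per group on all 32 arrays (28 residual degrees of freedom), with 5 contrasts and Benjamini-Hochberg adjustment over all genes at 0.05; values after ± are standard errors and intervals are at 95%. The functions were tested on simulated data. Genes given in full were the fibrinogen chains, F2, Plg and Serpinc1, the 8 largest rises and falls called per clamp comparison, genes called in 1 of these comparisons, and the 3 smallest p of each other contrast; Hc and Serping1, called outside the 8 largest rises, were added after their values were seen. The rule for the 42 genes uses no measured value, but this list, the other lists and the tests were drawn up with earlier results of these data known. The number of arrays limits the precision.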

Additional observations from a re-analysis of the deposited data

Results flagged for a closer look

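In 152 sets of values (38 genes in 4 groups), 15 had a lowest or highest array set apart from the others by more than Dixon's 95% limit, and chance flags about 1 in 20. Control clamped mouse 6 was low in Serpinc1 (10.06, next 10.29), Serpind1 (8.98, next 9.59) and C2 (5.93, next 6.57). Palm oil basal mouse 5 was low in F12 (8.58, next 8.99) and Serpinf2 (9.36, next 9.86). Palm oil clamped mouse 6 was high in F5 (9.36) and low in Ahsg (11.26). Of the genes that rose, F9 was low in palm oil clamped mouse 3 (8.75), Fgg was low in palm oil clamped mouse 1 (10.99, next 11.12), and Serpina10 was high in control basal mouse 7 (8.77, next 8.41). The others were high F2 in control clamped mouse 5 (10.73), high C2 in palm oil clamped mouse 4 (7.26), high C8g in control basal mouse 5 (10.12), high Cfb in control clamped mouse 7 (10.57) and low Cfi in control basal mouse 6 (8.95).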

How the results depend on the processing

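The control clamp comparison called 8 to 18 of the 38 genes and the palm oil clamp comparison 5 to 17, over the 18 settings run beside the main one, with F3 lower in each. The control count was 8 (against 15) without the basal arrays numbered 44 or higher, 8 with that split as a term and 8 with the hepatocyte marker level as a term. The palm oil count was 5 (against 13) without the arrays high in acinar transcripts and 6 with the hepatocyte marker level as a term. These settings either remove arrays or add a term. With the split as a term, 588 of all genes rose and 939 fell in control mice, against 1033 and 907 in the main fit. The counts over all genes for the other settings named here are given above. Leaving out each array in turn gave 12 to 15 calls in control and 13 to 14 in palm oil mice; C6, C9, Cfp and Kng1 of the control comparison each lost their call without single arrays: C6 without control basal 1, 5 or 6 or control clamped 1, 2 or 3; Cfp without control basal 1, 3 or 7 or control clamped 3, 4 or 5; Kng1 without control basal 4 to 7 or control clamped 2, 5, 6 or 7; and C9 without any of 16 arrays of all 4 groups. The comparisons of palm oil with control and the interaction gave 0 under every setting run. The replicate number as a block gave 14 and 13 calls; the labels tie no number to a shared source. The r of same-numbered mice ran from -0.23 to 0.29 and was over 0.1 in 5 of 7 pairs of palm oil with control basal mice, 1 of 7 of the clamped, 3 of 9 of the palm oil clamp and 0 of 7 of the control clamp comparison. Since not every pair passed 0.1 in any comparison, the numbers were not taken as pairs.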
